A study of Caenorhabditis elegans with 16 samples.

Results

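The T-box genes described here are 10 transcription factor genes of Caenorhabditis elegans that act in the embryo: tbx-2, tbx-7, tbx-8, tbx-9, tbx-11, tbx-33, tbx-35, tbx-37, tbx-38 and mab-9. They were taken by symbol from a table of raw read counts of 46726 genes, which holds 22 T-box genes in all. All 10 were detected in each of the 16 libraries and passed the filter on low counts. No deletion or mutation of a T-box gene is part of the study.

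T-box proteins bind DNA through a conserved domain first recognised in the mouse Brachyury protein, and they switch target genes on or off as cells take their fates. The family is large and fast-changing in nematodes, and several of its members act as pairs that can replace each other. In the worm embryo they are known for choosing the fates of pharyngeal, muscle, epidermal and hindgut precursors, and several of them are transcribed only for a few cell divisions.

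The 4 genotypes, each with 4 libraries, were compared in mixed-stage embryos, obtained by bleaching gravid worms that had been kept at 16 °C. The controls were the N2 strain, called WT below. The single mutants carried edc-3(ok1427) in strain RB1311 or edc-4(qe49) in strain FD135. The double mutant carried edc-3(ok1427) together with edc-4(qe49); its samples are labelled strain FD146, whereas the series' design text names FD135 for it. The proteins that these genes encode help the decapping enzyme to take the 5′ cap off mRNAs, a step before decay of many of them, and the design asks how losing either or both alters embryonic transcripts. Each mutation is present in every cell of the embryo, each strain is 1 line, and no rescued strain was among the samples. RNA from a pool of embryos of many ages was sequenced, so fewer cells of a type, or fewer embryos of an age, and less RNA per cell cannot be told apart.

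Library totals ran between 34089540 and 52893968 counts. The mutated genes were read first. The level of edc-4 lay between 139 and 183 CPM (the gene's count relative to its library's scaled total) in WT, between 29.4 and 35.3 in edc-4 and between 20.4 and 31 in the double mutant. For edc-3 the ranges were 70.8 to 97.8 CPM in WT, 57.4 to 69.3 in edc-3 and 65.01 to 82.5 in the double mutant, counted over the whole gene, so a deletion of one stretch is not seen directly. The edc-4 levels thus went with their labels, and for edc-3 the single mutant lay below WT while the double mutant overlapped it, so that edc-3 checks its label only in part. Principal component 1 carried 36.05% of the variance of log2 CPM, with WT replicate 4 at one end and replicate 4 of edc-4 and of the double mutant at the other. Markers of early and of differentiated embryos were present in every library, as the label of mixed stages implies, and varied between libraries. The summed level of the early zygotic genes was 1025 to 1648 CPM for WT, 1396 to 1912 for edc-3, 1176 to 2480 for edc-4 and 1412 to 2421 for the double mutant. The summed level of the muscle genes was 7563 to 9547 CPM for WT, 6972 to 9333 for edc-3, 4930 to 10995 for edc-4 and 4713 to 9337 for the double mutant. Oocyte genes summed to 573 to 1840 CPM for WT, 1130 to 2364 for edc-3, 1246 to 1680 for edc-4 and 1605 to 2047 for the double mutant. Vitellogenin genes, which mark the adult intestine, never passed 2.74 CPM in sum, and sperm genes, of which up to 22 of 28 were at 0 in a library, never passed 1.62 CPM. The fits were repeated without the libraries numbered 4, and the main values that moved are given beside the results.

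Of the 10 genes, 8 lie on chromosome III and 2 on chromosome II in WBcel235. The genes tbx-9 (III, 10340006 to 10341858, minus strand) and tbx-8 (III, 10347349 to 10349740, plus strand) are divergent neighbours 5.49 kb apart with no coding gene between them. The genes tbx-7 (III, 6024958 to 6028532) and tbx-11 (III, 6045615 to 6046981) lie 17.08 kb apart on the minus strand with 2 coding genes between them. Elsewhere on the chromosome are tbx-2 (5130923 to 5136296), tbx-37 (11224808 to 11227125), tbx-33 (11633216 to 11636840) and tbx-38 (11784082 to 11786061), all on the minus strand. On chromosome II, mab-9 spans 516024 to 521635 on the plus strand and tbx-35 spans 5524101 to 5525397 on the minus strand. The annotation overlaps tbx-38 with srd-74 and C24H11.10 on the other strand, the larger overlap being 80 bases. It overlaps tbx-7 with cyk-3 on the other strand over 28 bases. The library kit keeps strand, but whether the counting used it is not given in the sources used here, so reads in these short overlaps could belong to either gene.

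Per kilobase of exon, the 10 genes fell into 4 tiers in WT. The top tier held tbx-2 at 30.3 ± 2.15 CPM per kb (SD, n = 4), tbx-11 at 28.3 ± 8.51 and tbx-9 at 28.2 ± 4.81 CPM per kb, whose libraries overlapped. The second tier held tbx-33 at 11.7 ± 3.71 and tbx-8 at 11.5 ± 1.77 CPM per kb, and none of its libraries reached the top tier. The third tier held tbx-38, tbx-7, tbx-37 and mab-9, with mean levels per kb of 5.09, 4.65, 4.41 and 4.03 CPM, which did not differ beyond their spread. The lowest level per kb was that of tbx-35, at 0.587 ± 0.231 CPM, below every library of the third tier. The same order held in the mutants except for exchanges within a tier: tbx-11 ranked first in all 3 mutant genotypes, and mab-9 ranked next to last and tbx-35 last in every genotype. The plot of length-adjusted levels shows these tiers.

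**Figure D1:**
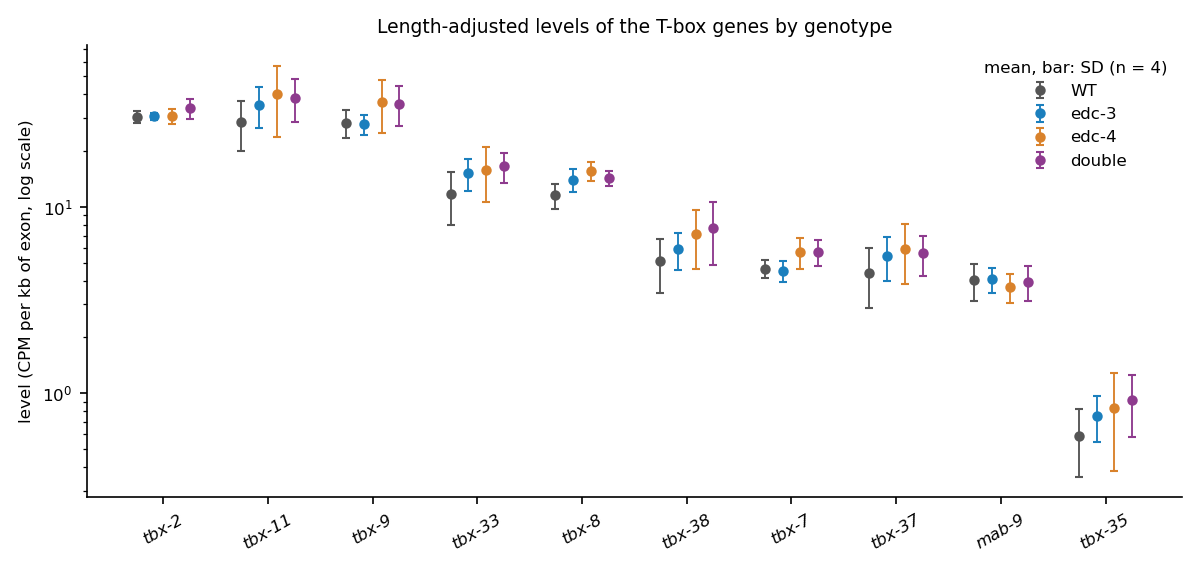
Level of each T-box gene per kilobase of exon (CPM per kb, log axis) in the 4 genotypes; points are means and bars SD over 4 libraries. The genes keep 4 tiers in every genotype, from about 30.3 CPM per kb for tbx-2 to 0.587 for tbx-35 in WT.

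No T-box gene differed between genotypes past the threshold of an adjusted p of 0.05 in edgeR's quasi-likelihood test with Benjamini-Hochberg adjustment over 16880 genes. Few genes of any kind did. Against WT, 0.142% of all tested genes passed for edc-3, 0.142% for edc-4 and 0.207% for the double mutant, which are 24, 24 and 35 genes. A count of 0 of 10 lies at that background and says nothing particular of these genes, and the intervals below give the sizes of difference that the libraries leave possible. The lowest adjusted p of a T-box gene was 0.9999 for edc-3, 0.831 for edc-4 and 0.421 for the double mutant. At an unadjusted p under 0.05, which 2.65% of all genes reached for edc-3, 4.98% for edc-4 and 11.5% for the double mutant, the T-box genes counted 0, 1 and 1, and the gene was tbx-8 in both cases. DESeq2 called 0 of the 10 genes after adjustment and 0, 1 and 3 at an unadjusted p under 0.05, where it placed 2.89%, 5.48% and 12.3% of all genes.

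The estimates leaned upward all the same. Relative to WT, 8 of 10 log2 fold changes were above 0 for edc-3, 9 for edc-4 and 9 for the double mutant, beside 48.9%, 50.8% and 48.8% of all tested genes. The medians of the 10 genes were 0.24, 0.43 and 0.34, and the medians over all tested genes were -0.0046, 0.0050 and -0.0097. These 3 comparisons share the WT libraries, so a low WT library moves all 3 together. Replicate 4 of WT was the lowest of all 16 libraries for 7 of the 10 genes, and replicate 4 of edc-4 was the highest of all for 6. Without the libraries numbered 4, the medians were -0.020 for edc-3, 0.046 for edc-4 and 0.14 for the double mutant, and 5, 9 and 10 of the 10 estimates were above 0. The median half-width of an unadjusted 95% interval was 0.46 on the log2 scale, so a smaller estimate in a member of typical error has an interval that crosses 0. Passing the adjusted threshold takes more. In edc-4, tbx-8 at 0.43 had an interval from 0.13 to 0.73 but an adjusted p of 0.831 in edgeR's quasi-likelihood test.

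**Figure D2:**
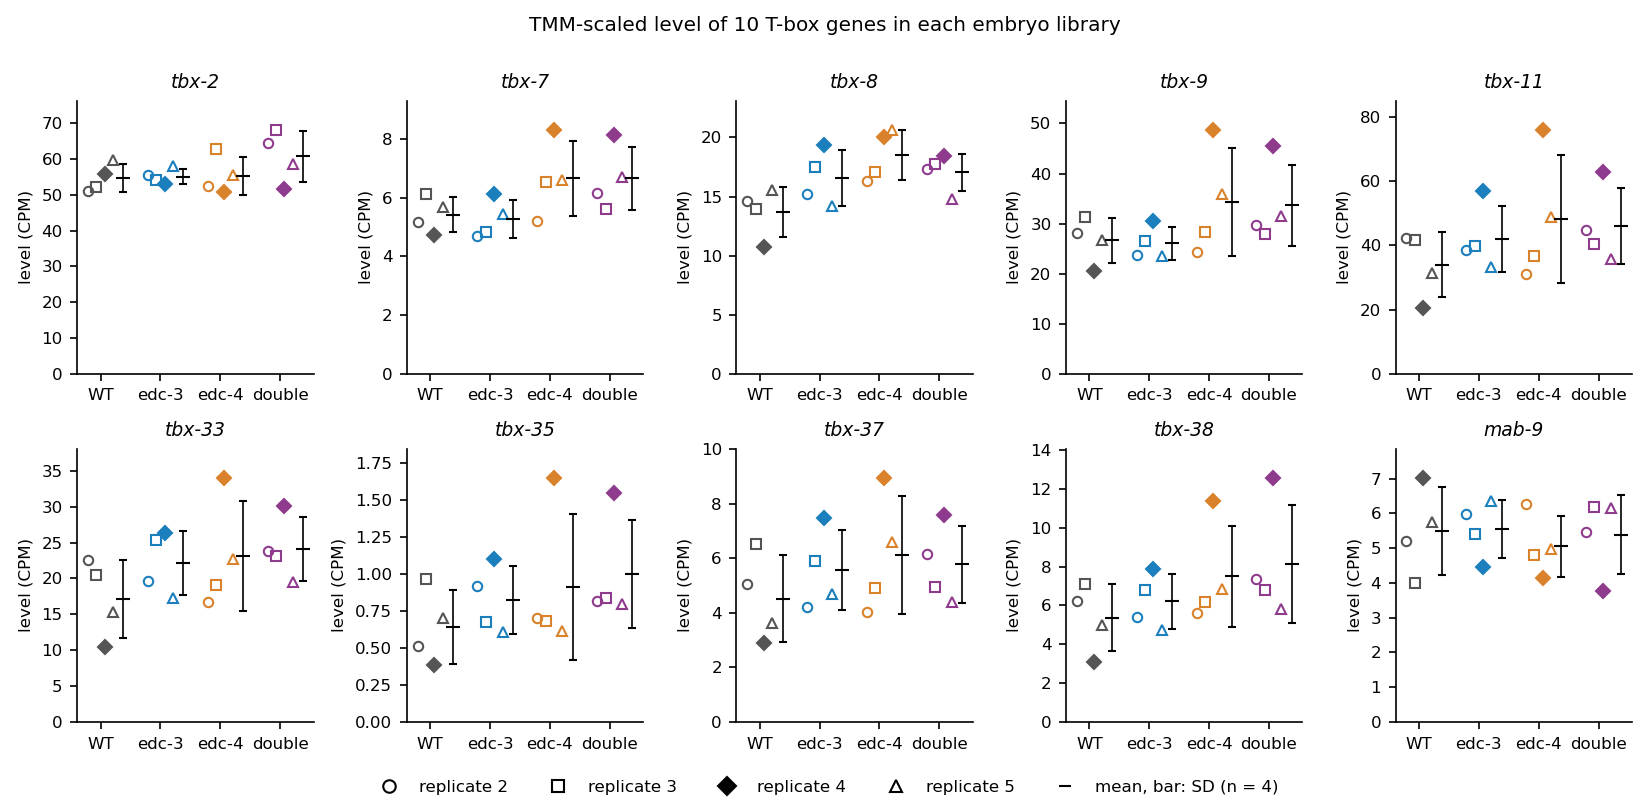
TMM-scaled level (CPM, linear axis from 0) of each T-box gene in every library, with the replicate number as the symbol, replicate 4 filled, and the mean and SD (n = 4) as a black bar. Replicate 4 is the lowest WT library for 8 of the genes and the highest edc-3 and double mutant library for the same 8, and mab-9 shows the opposite order.

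**Figure D3:**
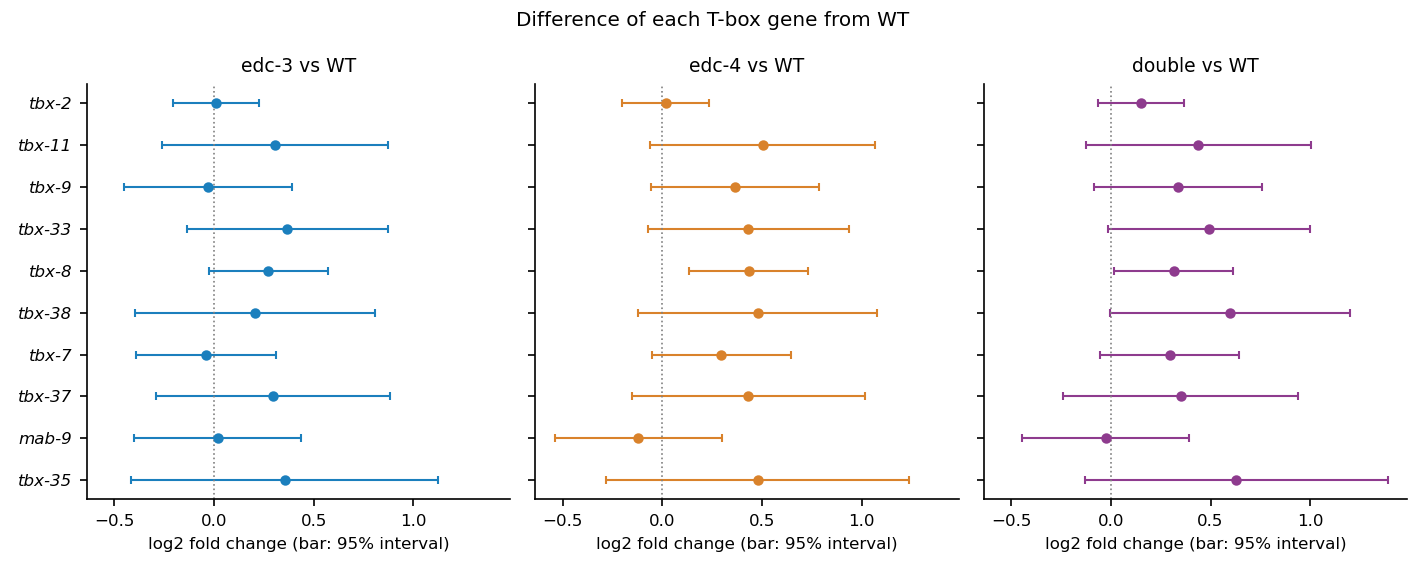
Log2 fold change of each T-box gene from WT in the 3 mutant genotypes with its 95% interval from edgeR. All intervals cross 0 except those of tbx-8 in edc-4 (0.13 to 0.73) and in the double mutant (0.017 to 0.61).

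The genes tbx-2, tbx-37 and tbx-38 are known for making the pharynx, the feeding organ at the front of the worm. TBX-37 and TBX-38 are closely related and act redundantly in the descendants of the ABa blastomere, where they and Notch signalling together turn on pharyngeal development. In WT, tbx-37 stood at 5.06, 6.51, 2.90 and 3.62 CPM in replicates 2, 3, 4 and 5, and in edc-3 at 4.20, 5.91, 7.47 and 4.68 CPM. In edc-4 the tbx-37 levels were 4.02, 4.89, 8.93 and 6.60 CPM, and in the double mutant 6.14, 4.94, 7.58 and 4.41 CPM. All 4 genotypes overlap, with WT replicate 4 lowest and edc-4 replicate 4 highest. The log2 fold changes of tbx-37 against WT were 0.30 ± 0.28 (SE) for edc-3, 0.43 ± 0.28 for edc-4 and 0.35 ± 0.28 for the double mutant. Without the libraries numbered 4 these tbx-37 estimates were -0.044 ± 0.23, 0.043 ± 0.23 and 0.026 ± 0.23.

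The partner gene tbx-38 showed nearly the same pattern. Its levels were 6.23, 7.11, 3.10 and 5.01 CPM in WT and 5.41, 6.77, 7.88 and 4.76 CPM in edc-3. In edc-4 the tbx-38 levels were 5.63, 6.15, 11.4 and 6.82 CPM, and in the double mutant 7.33, 6.80, 12.6 and 5.80 CPM. Replicate 4 was the lowest tbx-38 library in WT and the highest in each mutant genotype, and the groups overlap. Against WT, tbx-38 had log2 fold changes of 0.21 ± 0.29 (SE) for edc-3, 0.48 ± 0.29 for edc-4 and 0.60 ± 0.29 for the double mutant. The last had a 95% interval from -0.0032 to 1.20 and an adjusted p of 0.438. Without the libraries numbered 4 the tbx-38 estimates were -0.12 ± 0.18 for edc-3, 0.031 ± 0.18 for edc-4 and 0.12 ± 0.18 for the double mutant. The level of tbx-38 per kb was 1.16 ± 0.141 times that of tbx-37 for WT, 1.10 ± 0.117 for edc-3, 1.21 ± 0.148 for edc-4 and 1.35 ± 0.191 for the double mutant (SD, n = 4). Because the pair is closely related, the authors' counting could have split or dropped shared reads, so the ratio is uncertain, and in an exact two-sided permutation test with 4 against 4 libraries no difference of the ratio from WT passed in any mutant genotype (adjusted p = 0.624 to 0.836 over 9 ratios tested, the lowest unadjusted p being 0.2).

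TBX-2 is needed for pharyngeal muscles that derive from ABa, and it acts as a repressor with the Groucho-type corepressor UNC-37 and with the SUMO pathway. It was the most even of the 10 genes: its highest library exceeded its lowest by 1.34 times over all 16. WT libraries held 51.1, 52.1, 55.8 and 59.6 CPM of tbx-2, and edc-3 libraries held 55.4, 54.03, 52.99 and 57.9 CPM. The edc-4 libraries held 52.4, 62.6, 50.7 and 55.4 CPM of tbx-2, and the double mutant held 64.5, 68.1, 51.7 and 58.6 CPM. Replicates 2 and 3 of the double mutant were the highest of all, while its replicates 4 and 5 lay inside the WT range. The fold change of tbx-2 from WT was 1.01 in edc-3 with a 95% interval from 0.867 to 1.17, and 1.01 in edc-4 with an interval from 0.871 to 1.18. In the double mutant the fold change was 1.11, with an interval from 0.955 to 1.29 and an adjusted p of 0.524. Of the summed CPM of the 10 genes, tbx-2 made up 33.2% for WT, 30.03% for edc-3, 27.9% for edc-4 and 29.5% for the double mutant.

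TBX-35 specifies the MS blastomere, which gives rise to pharynx and body muscle, and it is a direct target of the MED-1 and MED-2 factors. Its transcripts are made for a short time in few cells, and tbx-35 had the fewest reads, 19 to 60 per library. Counting alone gives a 95% interval of 11.4 to 29.7 for the library with 19 reads, and of 45.8 to 77.2 for the one with 60, under exact Poisson limits that cover counting error only. The tbx-35 levels were 0.513, 0.965, 0.385 and 0.706 CPM in WT and 0.919, 0.674, 1.10 and 0.607 CPM in edc-3. In edc-4 tbx-35 stood at 0.704, 0.681, 1.65 and 0.617 CPM, and in the double mutant at 0.818, 0.837, 1.55 and 0.80 CPM. In both edc-4 and the double mutant, 3 libraries lay close together and replicate 4 stood far above them. The log2 fold change of tbx-35 in the double mutant was 0.63 ± 0.36 (SE; adjusted p = 0.476). Without the libraries numbered 4 it was 0.16 ± 0.28.

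The neighbours tbx-8 and tbx-9 act redundantly in the shaping of body wall muscle and epidermis and lie downstream of the Caudal-type factor PAL-1 in the C lineage. The levels of tbx-8 were 14.6, 13.9, 10.7 and 15.6 CPM in WT and 15.2, 17.5, 19.4 and 14.2 CPM in edc-3. In edc-4 tbx-8 stood at 16.3, 17.1, 20.01 and 20.6 CPM, and in the double mutant at 17.3, 17.7, 18.4 and 14.8 CPM. All 4 edc-4 libraries lay above all 4 WT libraries. No other of the 10 genes had libraries wholly apart from those of WT in any mutant genotype. The 10 genes count 0 such cases for edc-3, 1 for edc-4 and 0 for the double mutant, beside 1.91%, 2.3% and 7.43% of all tested genes.

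The log2 fold change of tbx-8 in edc-4 was 0.43 ± 0.14 (SE), or 1.35-fold with a 95% interval from 1.10 to 1.66. Its unadjusted p in edgeR's quasi-likelihood test was 0.00696 and its adjusted p was 0.831, at rank 123 of the 16880 genes by p. The estimate was 0.30 ± 0.13 without the libraries numbered 4. In edc-3 the log2 fold change of tbx-8 was 0.27 ± 0.14, and in the double mutant it was 0.32 ± 0.14, with an adjusted p of 0.421. Those came to 0.085 ± 0.13 and 0.17 ± 0.13 without the libraries numbered 4.

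Its neighbour tbx-9 varied more between libraries of one genotype. WT held 28.2, 31.3, 20.4 and 26.7 CPM of tbx-9 and edc-3 held 23.7, 26.6, 30.6 and 23.5 CPM. In edc-4 the tbx-9 levels were 24.2, 28.4, 48.7 and 35.9 CPM, and in the double mutant 29.7, 27.8, 45.5 and 31.5 CPM. The genotypes overlap, and replicate 4 of edc-4 and of the double mutant stood highest. Log2 fold changes of tbx-9 from WT were -0.031 ± 0.20 (SE) for edc-3, 0.36 ± 0.20 for edc-4 and 0.34 ± 0.20 for the double mutant. The tbx-9 estimates were -0.22 ± 0.13, 0.050 ± 0.13 and 0.045 ± 0.13 without the libraries numbered 4. Per kb, tbx-9 stood at 2.46 ± 0.276 times the level of tbx-8 for WT, 2.00 ± 0.0750 for edc-3, 2.31 ± 0.526 for edc-4 and 2.49 ± 0.513 for the double mutant (SD, n = 4). The edc-3 range, 1.92 to 2.10, lay wholly below the WT range, 2.17 to 2.83. An exact two-sided permutation test of the log2 ratio gave p = 0.0286 there, the smallest that 4 against 4 libraries allow, and 0.257 after adjustment over the 9 ratios tested.

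MAB-9, a relative of vertebrate TBX20, gives hindgut cells and some motor neurons their identity. The mab-9 levels were 5.2, 3.99, 7.02 and 5.76 CPM in WT and 6.0, 5.42, 4.45 and 6.36 CPM in edc-3. In edc-4 mab-9 stood at 6.27, 4.81, 4.15 and 4.97 CPM, and in the double mutant at 5.47, 6.17, 3.76 and 6.15 CPM. Here replicate 4 was the highest WT library and the lowest library of each mutant genotype, the reverse of tbx-38. The log2 fold changes of mab-9 were 0.019 ± 0.20 (SE) for edc-3, -0.12 ± 0.20 for edc-4 and -0.027 ± 0.20 for the double mutant. Without the libraries numbered 4 they came to 0.25 ± 0.17, 0.11 ± 0.17 and 0.25 ± 0.17, the last 2 with their sign turned.

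No role is given here for tbx-7, tbx-11 and tbx-33, which are less studied. The strongest swings of an abundant gene were those of tbx-11, whose WT levels were 42.2, 41.7, 20.6 and 31.5 CPM and whose edc-3 levels were 38.5, 39.8, 56.9 and 33.2 CPM. In edc-4 tbx-11 stood at 31.1, 36.8, 76.02 and 48.9 CPM, and in the double mutant at 44.8, 40.6, 63.03 and 35.9 CPM. Its highest library was 3.69 times its lowest, and both carry the number 4. The log2 fold change of tbx-11 was 0.50 ± 0.27 (SE) in edc-4, with a 95% interval from -0.062 to 1.07, and 0.029 ± 0.15 without the libraries numbered 4.

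The tbx-33 levels followed those of tbx-11. They were 22.6, 20.4, 10.4 and 15.3 CPM in WT and 19.7, 25.4, 26.4 and 17.2 CPM in edc-3. In edc-4 tbx-33 stood at 16.8, 19.1, 34 and 22.8 CPM, and in the double mutant at 23.8, 23.1, 30.2 and 19.5 CPM. Replicate 4 was again lowest in WT and highest in the mutants. The double mutant gave tbx-33 a log2 fold change of 0.49 ± 0.24 (SE; adjusted p = 0.440), which became 0.19 ± 0.17 without the libraries numbered 4.

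Less abundant and steadier, tbx-7 stood at 5.15, 6.11, 4.73 and 5.67 CPM in WT and at 4.68, 4.84, 6.13 and 5.44 CPM in edc-3. The edc-4 libraries held 5.19, 6.51, 8.30 and 6.60 CPM of tbx-7, and the double mutant held 6.14, 5.62, 8.13 and 6.70 CPM. The WT and edc-3 ranges of tbx-7 are nearly the same, and 3 of 4 libraries in edc-4 and 3 of 4 in the double mutant lay above the highest WT library. The log2 fold changes of tbx-7 were -0.038 ± 0.17 (SE) for edc-3, 0.30 ± 0.17 for edc-4 and 0.30 ± 0.17 for the double mutant. They came to -0.18 ± 0.15, 0.12 ± 0.15 and 0.12 ± 0.15 without the libraries numbered 4.

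The double mutant was also set against each single mutant, which asks what the second allele adds. Of the 10 genes, 0 passed in either comparison, beside 0.0355% of all tested genes against edc-3 and 0.0296% against edc-4. At an unadjusted p under 0.05 there were also 0 in both, where 5.01% and 2.81% of all genes stood. DESeq2 called 0 in both after adjustment, and 1 and 0 at an unadjusted p under 0.05, beside 5.47% and 3.13% of all genes. Against edc-3 the largest T-box estimates were those of tbx-38 at 0.39 ± 0.29 (SE), tbx-9 at 0.37 ± 0.20 and tbx-7 at 0.33 ± 0.17, which came to 0.24 ± 0.18, 0.27 ± 0.13 and 0.30 ± 0.15 without the libraries numbered 4. Against edc-4 every T-box estimate lay between -0.12 for tbx-8 and 0.15 for tbx-35.

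A departure of the double mutant from the sum of the single differences was tested as an interaction. It called 0 of the 10 genes and 0.0355% of all genes, and 0 of the 10 reached an unadjusted p under 0.05, against 1.62% of all genes. DESeq2 likewise gave 0 at either threshold, beside 1.64% of all genes unadjusted. For tbx-8 the interaction was -0.39 ± 0.20 (SE), with an unadjusted p of 0.0684 in edgeR's quasi-likelihood test, and -0.22 ± 0.19 without the libraries numbered 4. Its sign follows from the means, which were 13.7 CPM for WT, 16.6 for edc-3, 18.5 for edc-4 and 17.1 for the double mutant. Intervals for the interaction had a median half-width of 0.65 on the log2 scale.

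The spread of the T-box genes between libraries was then read against embryo age markers. A score was made for each library as the mean log2 CPM of early zygotic genes minus that of muscle genes, neither list holding any of the 10 genes. A higher score means more early relative to muscle transcript. The scores were -4.50, -3.92, -5.01 and -4.50 for WT, -4.40, -4.06, -3.56 and -4.47 for edc-3, -4.98, -4.47, -2.84 and -3.86 for edc-4 and -3.92, -4.21, -2.64 and -4.20 for the double mutant, for replicates 2, 3, 4 and 5. Replicate 4 thus had the lowest score of WT and the highest score of each mutant genotype, and the ranges of all 4 genotypes overlap.

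Within genotypes, every T-box gene went with the score past the threshold, 8 rising and 2 falling. The slope was fitted beside a mean for each genotype in edgeR's quasi-likelihood test, and was added after the data had been seen. The score is a broad axis: 27% of all tested genes rose with it and 28.7% fell, so passing is common, and the median slope over all genes was -0.060 where that of the 10 genes was 0.47. Slopes are log2 units of level per unit of score. The steepest belonged to tbx-35 at 0.66 ± 0.13 (SE; adjusted p = 0.000407), tbx-38 at 0.61 ± 0.078 (adjusted p = 4.13e-06), tbx-11 at 0.61 ± 0.069 (adjusted p = 1.05e-06) and tbx-37 at 0.59 ± 0.085 (adjusted p = 1.39e-05).

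Next came tbx-33 at 0.48 ± 0.083 and tbx-9 at 0.46 ± 0.041, then tbx-7 at 0.28 ± 0.061 and tbx-8 at 0.19 ± 0.064, with adjusted p of 9.51e-05, 8.25e-08, 0.000704 and 0.0177. The redundant neighbours tbx-8 and tbx-9 thus had slopes whose 95% intervals, 0.055 to 0.32 and 0.37 to 0.54, did not meet, although that difference was not tested. Without the libraries numbered 4 their slopes were 0.22 ± 0.13 and 0.43 ± 0.099 (SE). The tbx-8 slope then had an adjusted p of 0.263 in the same quasi-likelihood test. The slopes of tbx-37 and tbx-38 differed by less than their errors. The falling genes were mab-9 at -0.39 ± 0.071 (adjusted p = 0.00015) and tbx-2 at -0.11 ± 0.047 (adjusted p = 0.0462). When each of the 16 libraries was left out in turn, the tbx-2 slope missed the threshold 12 times, with an adjusted p up to 0.252, and the slopes of the other genes stayed past it.

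**Figure D4:**
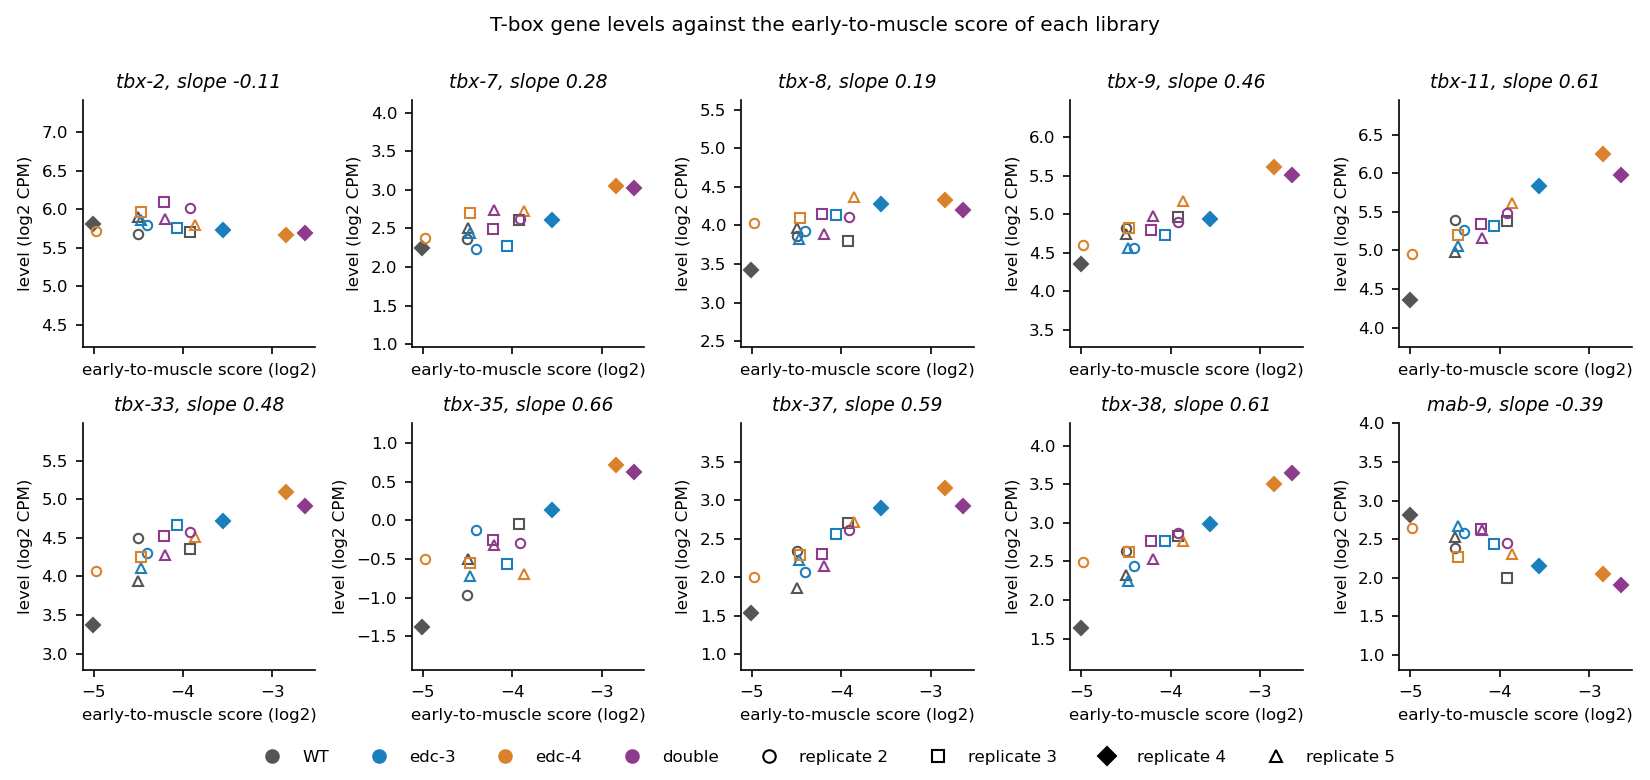
Level of each T-box gene (log2 CPM, each panel spanning the same range of 3.2 log2 units) against the early-to-muscle score of the library, with genotype as colour and replicate as symbol. All 8 rising genes stand higher in replicate 4 of the double mutant, at a score of -2.64, than in WT replicate 4 at -5.01. For 6 of them the highest library is replicate 4 of edc-4. In contrast, tbx-2 is nearly flat and mab-9 descends. The slopes in the panel titles were fitted within genotypes.

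The libraries numbered 4 carry much of this relation. Without them, 3 of the 10 slopes passed, those of tbx-9 (adjusted p = 0.0144), tbx-11 (adjusted p = 0.0173) and tbx-37 (adjusted p = 0.0134), and 2647 genes in all passed in place of 9403. All 10 slopes kept their sign. The slope of tbx-35 was then 0.14 in place of 0.66 and that of tbx-2 was -0.025, while mab-9 had -0.44 with an adjusted p of 0.0713. The order within genotypes can be read without a fit. In WT, replicate 4 had the lowest score and the lowest level of all 8 rising genes. Replicate 4 of edc-3 and replicate 4 of the double mutant had the highest score and the highest level of all 8, and in edc-4 of 7 of the 8, tbx-8 being the exception. The other end of each genotype was less regular. The WT library with the highest score, replicate 3, was highest for 5 of the 8. The libraries with the lowest score in edc-3, edc-4 and the double mutant, replicates 5, 2 and 3, were lowest for 6, 7 and 2 of the 8.

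With the score as a covariate, the upward lean of the mutants and the errors both shrank. The median log2 fold change of the 10 genes was then 0.10 for edc-3, 0.15 for edc-4 and 0.13 for the double mutant, and the median SE went from 0.22 to between 0.116 and 0.124. Above 0 were 8, 10 and 7 of the 10 estimates. Still 0 of the 10 passed in any comparison. In edc-4, tbx-8 kept 0.35 ± 0.11 (SE), with an unadjusted p of 0.00401 and an adjusted p of 0.335. In the double mutant, tbx-2 had the lowest p, at 0.23 ± 0.082 with an unadjusted p of 0.011 and an adjusted p of 0.242, and it had 0.23 ± 0.099 without the libraries numbered 4. In edc-3, tbx-9 came to -0.19 ± 0.069 with an adjusted p of 0.558. The score was measured on the same libraries, and its part in the differences between genotypes was not tested.

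**Figure D5:**
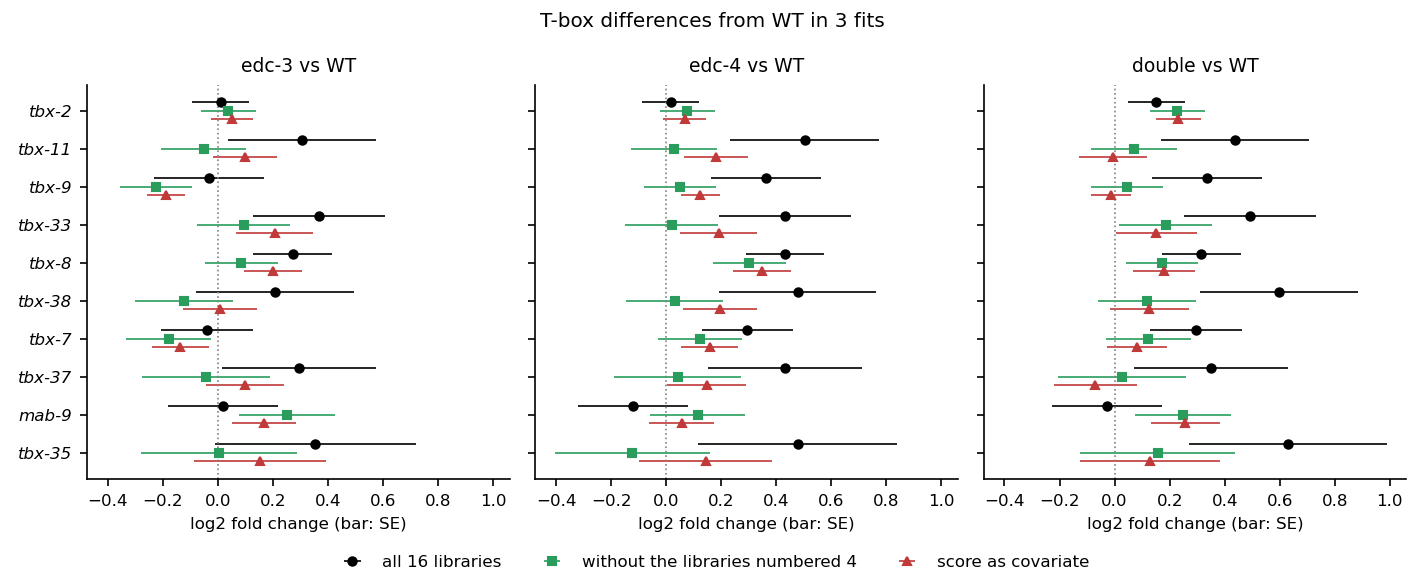
Log2 fold change from WT (bar: SE) of each T-box gene with all 16 libraries, without the libraries numbered 4, and with the score as covariate. Most estimates move toward 0 in the last 2 fits, while tbx-8 in edc-4 stays at 0.30 and 0.35 and tbx-2 in the double mutant moves from 0.15 to 0.23.

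Genes around the T-box factors were read from the same fits, by lists written with earlier results of these data known. In the Notch signalling list, which acts upstream of tbx-37 and tbx-38, 0 of 21 tested genes passed in any of the 6 genotype comparisons, and 18 rose and 0 fell with the score, 6 of its genes also being in the early zygotic list. The steepest were hlh-28 at 1.03 ± 0.26 (SE) and hlh-26 at 0.84 ± 0.15, which encode repressors of the REF-1 family, a family that Notch signalling turns on in the early embryo. Of these, hlh-28 is itself in the early zygotic list, so its slope is in part fixed by the score. In the MS specification list around tbx-35, 0 of 16 passed between genotypes, while 12 rose and 1 fell with the score. This list shares 5 genes with the early zygotic list, so part of its rise is built into the score. The genes med-1 and med-2, which switch tbx-35 on, had slopes of 0.88 ± 0.15 and 0.66 ± 0.16, and the kinase gene lit-1 had -0.28 ± 0.056. The early zygotic list holds med-1, so its slope is in part fixed by the score, and its mean level in WT was only 0.235 CPM.

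Downstream of tbx-2, tbx-37 and tbx-38, the pharynx list had 0 of 22 genes past the threshold between genotypes, and 1 rising and 17 falling with the score. The pharyngeal myosin genes myo-1 and myo-2 fell at -0.81 ± 0.13 and -0.79 ± 0.13, and these are among the 3 pharynx genes that the muscle list also holds, while pha-1 rose at 0.22 ± 0.049. The corepressor and SUMO list that serves TBX-2 had 0 of 10 between genotypes and 8 rising with the score, smo-1 (SUMO itself) at 0.44 ± 0.043 and uba-2 (a subunit of its activating enzyme) at 0.44 ± 0.048.

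The C lineage and epidermis list around tbx-8 and tbx-9 shares 4 genes with the early zygotic list and 1 with the muscle list. It had 0 of 18 between genotypes, with 7 rising and 3 falling along the score. There pal-1 rose at 0.40 ± 0.039 and hnd-1, a muscle lineage factor, at 0.45 ± 0.049, while the epidermal factors elt-3 and nhr-23 fell at -0.30 ± 0.047 and -0.25 ± 0.065. The hindgut list around mab-9 shares 1 gene with the early zygotic list. In it, 0 of 14 passed between genotypes, and 0 rose and 11 fell with the score, sem-4 at -0.57 ± 0.065 and the beta-catenin gene bar-1 at -0.43 ± 0.060. The direction of mab-9 along the score was thus that of most of the hindgut list, and 28.7% of all tested genes also fell. The list around tbx-8 and tbx-9 held genes of both directions, with a median slope of 0.013. Of the 6 lists, the median log2 fold changes in the double mutant were 0.26 for Notch signalling, 0.27 for MS specification, -0.13 for pharynx, 0.12 for C lineage and epidermis, -0.048 for hindgut and 0.20 for corepressor and SUMO, beside -0.0097 over all genes. DESeq2 also called 0 genes of these 6 lists in every comparison. At an unadjusted p under 0.05 in the double mutant against WT, edgeR counted 4 genes of Notch signalling, 4 of MS specification, 0 of pharynx, 2 of C lineage and epidermis, 1 of hindgut and 1 of corepressor and SUMO, and DESeq2 gave 3 for C lineage and epidermis and the same counts for the others. At that threshold stood 11.5% of all genes in edgeR and 12.3% in DESeq2, and the lists hold 21, 16, 22, 18, 14 and 10 tested genes in that order. Without the libraries numbered 4, where 7.37% of all genes rose with the score and 8.25% fell, the genes rising and falling were 2 and 0 for Notch signalling, 3 and 0 for MS specification, 0 and 10 for pharynx, 2 and 0 for C lineage and epidermis, 0 and 2 for hindgut and 3 and 0 for corepressor and SUMO.

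Of the marker lists (early zygotic, muscle, oocyte, adult intestine and sperm), the oocyte list alone held genes past the threshold between genotypes. Against WT, 3 of its 16 tested genes rose in edc-3 and likewise 3 in the double mutant, and 2 rose when the double mutant was set against edc-4. Among them stood chs-1, a chitin synthase of the eggshell, with a log2 fold change from WT of 2.29 ± 0.26 (SE; adjusted p = 0.000114) for edc-3 and 2.38 ± 0.26 (adjusted p = 9.43e-05) for the double mutant. No T-box gene is in that list, and its part in the T-box levels was not tested.

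Of the other 12 T-box genes in the table, 8 passed the filter, and 0 passed the test between genotypes in edgeR or DESeq2, with 1 at an unadjusted p under 0.05 in the double mutant by either tool. With the score 7 of the 8 rose, led by tbx-40 at 0.93 ± 0.10 (SE) and tbx-39 at 0.82 ± 0.076, and mls-1, which sets the fate of uterine muscles, fell at -0.30 ± 0.096. Over the libraries not numbered 4, 5 of the 8 rose and 0 fell. The remaining genes tbx-30, tbx-34, tbx-41 and tbx-42 had 4, 1, 10 and 12 reads over all 16 libraries together. Rising with the score was therefore not particular to the 10 genes within the family.

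The T-box genes were also compared with each other across the 16 libraries by Pearson's r of log2 CPM, given as a description, since the libraries share genotype, score and scaling. The most alike pair was tbx-11 and tbx-33 (r = 0.959), and tbx-37 and tbx-38 had r = 0.912. The divergent neighbours tbx-8 and tbx-9 had r = 0.688, and the near neighbours tbx-7 and tbx-11 had r = 0.742, so the closest genes on the chromosome were not the most alike. The most opposed pair was tbx-37 and mab-9 (r = -0.849), and tbx-2 stood apart from the rising genes, with r between -0.333 and -0.0153. Over the 12 libraries not numbered 4, r was 0.854 for tbx-11 with tbx-33, 0.830 for tbx-37 with tbx-38, 0.422 for tbx-8 with tbx-9, 0.255 for tbx-7 with tbx-11 and -0.667 for tbx-37 with mab-9.

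Over 12551 genes with a mean of at least 1 CPM, the gene most like each T-box gene was picked by the same r. It was rsd-3 for tbx-2 (r = 0.825), vps-26 for tbx-7 (r = 0.960), lmp-1 for tbx-8 (r = 0.937), Y110A7A.4 for tbx-9 (r = 0.985) and fbxb-119 for tbx-11 (r = 0.98). It was B0303.14 for tbx-33 (r = 0.977), hpo-4 for tbx-35 (r = 0.922), fbxc-32 for tbx-37 (r = 0.971), fat-1 for tbx-38 (r = 0.985) and ace-4 for mab-9 (r = 0.933). No T-box gene had another T-box gene among its 2 most alike genes. These choices depended on the library set: of the 20 genes named at the top 2 places, 4 were named again without the libraries numbered 4, and 1 when the values were centred within genotype.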

How the data were processed

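RNA of 16 mixed-stage embryo samples, 4 independent samples for each of 4 genotypes, was sequenced after stranded total RNA library preparation, per the labels' protocols. The authors deposited 1 table of raw read counts per gene; Trimmomatic, STAR, HTSeq, edgeR and limma and the build WBcel235 are named in the submitters' processing notes, with no versions, roles or strand setting. Everything below was computed from those counts. In R 4.3.3, edgeR 4.0.16 kept genes by its expression filter (minimum count 10, minimum total 15; 16880 genes), scaled libraries by TMM (factors 0.927 to 1.10) and fitted 1 mean per genotype to all 16 libraries. Each comparison used the quasi-likelihood test with Benjamini-Hochberg adjustment over all tested genes at 0.05, and 95% intervals used the fit's degrees of freedom. The common biological coefficient of variation was 0.193. DESeq2 1.42.0 and the other settings in the closing section were alternatives. The fits were tested on simulated data.

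Levels are TMM-scaled CPM, divided by the union exon length of Ensembl release 115 where genes are compared. The prior count for log2 CPM was 2. The text names all 10 members, up to 2 rising and 2 falling genes of each list by size among those past the threshold, and the 2 genes most like each member. The members and lists were chosen with earlier results of these data known, and the slope on the score and the ratios of pairs were added after seeing the data. Replicates were compared before averaging, and 0 pairs of libraries held identical values. Replicate numbers were not treated as pairs. No sequences are shown, since the reference tables used here held none.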

Additional observations from a re-analysis of the deposited data

Results flagged for a closer look

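Across the 10 T-box genes and 4 genotypes, 40 groups of 4 libraries were searched for a library far from the others, and 2 were found. A rate of 1 in 20 gives about as many in independent groups, but these groups share their libraries across genes. Both values found concern tbx-35. In edc-4, replicate 4 held 1.65 CPM of tbx-35 while the other libraries held 0.617 to 0.704 CPM. In the double mutant, replicate 4 held 1.55 CPM while the others held 0.80 to 0.837 CPM. These libraries also had the highest early-to-muscle scores of all, -2.84 and -2.64, and the part of the score in the 2 values was not tested.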

How the results depend on the processing

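No T-box gene passed the adjusted threshold in any genotype comparison under any alternative tried. Of 470 log2 fold changes of T-box genes under the alternatives that change a setting, 431 kept their sign and 39 turned; of 960 with 1 library left out, 889 kept it and 71 turned. The causes were not tested. The count of genes of all kinds moved most. Without a filter on low counts it was 40 in edc-3, 65 in the double mutant, 12 for the double mutant against edc-4 and 10 for the interaction. With only the 2 groups compared in the fit it was 14 in edc-3 and 7 in edc-4. With the score as covariate it was 38 for edc-3, 49 for edc-4, 100 for the double mutant, 41 for the double mutant against edc-3, 8 against edc-4 and 16 for the interaction. DESeq2 gave 39, 42, 113, 25, 12 and 17 in the same order. With 1 library left out the counts ranged from 14 to 26 for edc-3, 15 to 27 for edc-4, 17 to 40 for the double mutant, 4 to 6 against edc-3, 2 to 7 against edc-4 and 5 to 7 for the interaction. Of the score slopes, 9 to 10 T-box genes and 7614 to 9507 genes passed with 1 library left out, and 3 T-box genes and 2647 genes without the libraries numbered 4.

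The T-box estimates that turned without the libraries numbered 4 were, for edc-3 against WT, tbx-11 at -0.051, tbx-37 at -0.044 and tbx-38 at -0.12; for edc-4, tbx-35 at -0.12 and mab-9 at 0.11; for the double mutant, mab-9 at 0.25; against edc-4, tbx-11 at 0.042. The interactions that turned there were tbx-11 at 0.093, tbx-33 at 0.072, tbx-35 at 0.28, tbx-37 at 0.027, tbx-38 at 0.21 and mab-9 at -0.12. With the score as covariate, mab-9 against WT turned to 0.057 for edc-4 and 0.26 for the double mutant, where tbx-9 came to -0.014, tbx-11 to -0.0048 and tbx-37 to -0.070. Against edc-3 under the covariate, tbx-8 came to -0.023, tbx-11 to -0.10, tbx-33 to -0.055, tbx-35 to -0.024, tbx-37 to -0.17 and mab-9 to 0.090. Against edc-4 under it, tbx-7 came to -0.076, tbx-33 to -0.040, tbx-35 to -0.016 and tbx-38 to -0.070. Without TMM scaling, tbx-8 came to -0.014 against edc-3, tbx-7 to -0.041 against edc-4, and the interactions of tbx-7 and tbx-9 to -0.019 and -0.049. For tbx-7 against edc-4 and the interaction of tbx-9, size factors gave -0.0016 and -0.0056, no filter -0.012 and -0.0099, and DESeq2 -0.00069 and -0.0060.

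With 1 library left out, the estimates that turned at least once ranged as follows. In edc-3, tbx-2 ranged from -0.024 to 0.050, tbx-7 from -0.13 to 0.013, tbx-9 from -0.14 to 0.043 and mab-9 from -0.12 to 0.16. In edc-4, tbx-2 ranged from -0.048 to 0.056 and mab-9 from -0.25 to 0.021, and in the double mutant mab-9 ranged from -0.16 to 0.11. Against edc-3, tbx-8 ranged from -0.025 to 0.13, tbx-11 from -0.061 to 0.32, tbx-33 from -0.0057 to 0.22, tbx-35 from -0.011 to 0.44, tbx-37 from -0.11 to 0.23 and mab-9 from -0.13 to 0.089. Against edc-4, tbx-7 ranged from -0.12 to 0.12, tbx-9 from -0.22 to 0.19, tbx-11 from -0.26 to 0.24, tbx-33 from -0.075 to 0.30, tbx-35 from -0.14 to 0.58, tbx-37 from -0.25 to 0.15 and tbx-38 from -0.18 to 0.39. The interaction ranged from -0.086 to 0.16 for tbx-7, -0.19 to 0.22 for tbx-9, -0.50 to 0.22 for tbx-35, -0.39 to 0.18 for tbx-38 and -0.067 to 0.21 for mab-9.

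Same-numbered libraries were alike only in part. Of 24 same-numbered pairs, 11 had a correlation of deviations over 0.1, and 7 of 16 libraries correlated best with their own number. The range was from -0.493 for WT with edc-4 to 0.656 for edc-4 with the double mutant, both in replicate 4. With the replicate block, 26, 25, 36, 4, 5 and 7 genes passed in the 6 comparisons in the order above, 0 of them T-box genes, and mab-9 in edc-3 came to -0.0012. Single-gene slopes lost with another score were tbx-2 with the early list alone (adjusted p = 0.0685) and tbx-8 with the muscle list alone (adjusted p = 0.0674). Depth limits tbx-35 most, with 19 to 60 reads per library.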

Other observations

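Summed over the 10 T-box genes, the level was 168 ± 21.9 CPM for WT, 185 ± 20.2 for edc-3, 206 ± 43.2 for edc-4 and 209 ± 24.5 for the double mutant (SD, n = 4). The ranges were 136.1 to 184.09, 168 to 213, 163 to 264 and 184.11 to 242 CPM. Those of edc-3 and edc-4 overlapped that of WT, while the lowest double mutant library lay just above the highest WT library. Taken singly, 7.43% of all tested genes and 0 of the 10 T-box genes had libraries wholly apart in that comparison. That share is of single genes and so is no background for a sum over 10, and the difference of the sums was not tested. The other T-box genes summed to 68.9 ± 19.3 CPM in WT and 89.3 ± 22.1 in the double mutant. The level of tbx-11 per kb was 0.949 ± 0.332 times that of tbx-2 in WT and 1.34 ± 0.644 times in edc-4, and an exact two-sided permutation test of that difference gave p = 0.314, or 0.624 after adjustment over the 9 ratios tested.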
